A study of Mus musculus with 21 samples.

Results

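Zic2, Zic5, Pax6, Pax8, Hes1, Hes3, Hes6, Insm1 and Sox1 are 9 transcription factor genes of neural and early fate choice. They were chosen by symbol from a table of 20900 mouse genes, with their differences from untreated cells already known, many of them among the largest falls. A filter on low values (a log2 value above 0 in at least 3 of the 21 libraries) left 14666 genes for testing, and all 9 genes passed it in the 3 untreated libraries alone. Because the differences from untreated cells chose the genes, those differences are given as a description with no test. Tests are given for the differences between the inhibitors and between times, which use the same treated libraries and are therefore not fully independent of the choice.

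The study followed poly(A) RNA in E14 mouse embryonic stem cells, a 129 strain line grown in serum and leukemia inhibitory factor. BMH-21 and CX-5461, the 2 drugs used, block RNA polymerase I, which makes the ribosomal RNA precursor. The 7 groups of 3 libraries were untreated cells at 0 h, cells after 2 h, 4 h and 8 h with 1 µM BMH-21, and cells after 2 h, 4 h and 8 h with 1 µM CX-5461. The labels name no genetic change in any group and no untreated cells at the later times, so time since the medium change and treatment cannot be told apart in the comparisons with untreated cells. Nothing in the labels says that the 3 libraries of a group came from separate cultures, so the p-values measure the spread between these libraries, which may be technical.

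Zic proteins are zinc finger factors of the early embryo that help hold pluripotent and neural progenitor states. Pax6 and Pax8 are paired-box factors, the first of eye and forebrain progenitors and the second of thyroid, kidney and the midbrain-hindbrain region. Hes proteins are basic helix-loop-helix repressors: Hes1 is a classical target of Notch signalling, Hes3 is a related factor of neural stem cells, and Hes6 is a member that can oppose Hes1. Insm1 is a zinc finger repressor of neuroendocrine cells and newborn neurons, and Sox1 is an early marker of neuroectoderm.

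The library totals ran from 46604397 to 62812641 reads. The deposited values are log2 CPM (reads scaled to a common library total) after a scaling of each library by the authors, with factors from 0.832 to 1.375. On this scale the median difference of all tested genes from untreated cells at 8 h was -0.40 (log2) for BMH-21 and 0.11 for CX-5461, against -0.19 and -0.11 on centred values. Centred values, with the median of each library set to the same level, are given where they alter a reading. E14 identity was checked on 11 embryonic stem cell genes, all of them tested, which summed to 6177.0 to 6219.9 CPM in untreated cells and, at 8 h, to between 3717.5 and 4165.3 in the BMH-21 libraries and between 5485.4 and 5561.7 in the CX-5461 libraries. Summed trophoblast markers, 5 of 6 of them tested, moved the other way, from 70.5 to 74.4 CPM in untreated cells to between 159.0 and 170.1 in the 8 h BMH-21 libraries and between 112.3 and 130.7 in the 8 h CX-5461 libraries. Primitive endoderm genes (6 of 7 tested) summed to 16.5 to 17.7 CPM in untreated cells, 25.4 to 27.2 after 8 h of BMH-21 and 19.9 to 21.8 after 8 h of CX-5461, and mesoderm genes (4 of 5 tested) to 2.8 to 3.3, 6.8 to 7.5 and 4.5 to 5.2. Fibroblast genes (4 of 7 tested, with Lum at 3 reads or fewer in every library) summed to 30.4 to 32.0 in untreated cells, 55.0 to 60.7 after 8 h of BMH-21 and 44.2 to 46.9 after 8 h of CX-5461. Calls by limma (adjusted p under 0.05) after 8 h of BMH-21 were mixed. They were 4 higher and 1 lower for trophoblast and 2 and 3 for primitive endoderm. Mesoderm and fibroblast genes had 1 and 1 each, where 24.5% of all tested genes were higher and 56.9% lower. Col1a1 went from 370 to 436 reads to 1853 to 2551, Mesp1 from 11 to 20 to 184 to 262 and Dcn from 11 to 14 to 4 to 6. Mesp1 and Cdx2 passed the filter only through treated libraries. The part of these shifts in the results on the 9 genes was not tested, and in such bulk samples fewer cells of a type and less RNA per cell cannot be told apart.

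Upstream sequences are shown for 3 genes with different time courses: Zic5, which was low early, Pax8, which was lower at each later time with BMH-21, and Hes6, which was high. Each line gives 200 bases, from 250 to 51 bases before the RefSeq start, on the minus strand of GRCm38.p6, the patched release of the mm10 assembly named in the submitters' processing notes. The windows lie at chr14:122465709-122465908, chr2:24475650-24475849 and chr1:91414089-91414288. Capitals mark matches to a motif searched on both strands: the E-box CANNTG, the N-box CACNAG or CTNGTG bound by Hes proteins, the GC box GGGCGG or CCGCCC, the CCAAT box (CCAAT or ATTGG) and the RBPJ core GTGGGAA or TTCCCAC of the Notch transcription complex.
Zic5: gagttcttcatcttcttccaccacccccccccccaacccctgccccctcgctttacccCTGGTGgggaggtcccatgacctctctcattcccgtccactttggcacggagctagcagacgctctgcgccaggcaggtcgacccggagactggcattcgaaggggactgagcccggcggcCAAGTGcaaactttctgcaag
Pax8: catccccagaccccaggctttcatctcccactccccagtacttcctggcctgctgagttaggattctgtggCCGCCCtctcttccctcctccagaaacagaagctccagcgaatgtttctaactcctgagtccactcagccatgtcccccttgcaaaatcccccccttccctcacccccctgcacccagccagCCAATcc
Hes6: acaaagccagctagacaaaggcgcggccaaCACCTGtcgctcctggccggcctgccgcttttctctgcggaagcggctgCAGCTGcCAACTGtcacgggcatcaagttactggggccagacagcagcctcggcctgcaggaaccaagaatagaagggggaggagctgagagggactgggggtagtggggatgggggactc
No printed match overlapped another. The Zic5 window held an N-box whose first base lay at -192 from the start and an E-box at -71. The Pax8 window held a GC box at -179 and a CCAAT box at -57. The Hes6 window held 3 E-boxes, at -220, -171 and -164. Of 32817 windows of this length in the RefSeq table, 59.1% held an E-box, 31.1% an N-box, 24.6% a GC box, 28.4% a CCAAT box and 4.35% an RBPJ core, so these matches are a description of the letters and not of binding. RefSeq windows were matched for 5 of the 9 genes, and those for Pax6 and Sox1 are not shown. Hes6 has a second RefSeq start, whose window (chr1:91413273-91413472) is not shown either and held 1 E-box, 1 N-box, 1 GC box and 2 CCAAT boxes.

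In untreated cells the 9 genes spanned a wide range of levels. On a scale of CPM per kilobase of exon, which uses library totals without the authors' factor, Zic2 was the highest at 30.7 ± 2.3 (SD, n = 3, as for all levels below). Hes1 followed at 9.95 ± 0.612 and Hes6 at 9.1 ± 0.531, and then Zic5 at 5.58 ± 0.122. The other 5 genes were low: Hes3 at 1.82 ± 0.21, Pax8 at 1.45 ± 0.105, Insm1 at 1.16 ± 0.0431, Pax6 at 0.716 ± 0.0548 and Sox1 at 0.472 ± 0.0682.

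The median of the 9 differences from untreated cells was -0.47 (log2) after 2 h of BMH-21, -1.62 after 4 h and -2.64 after 8 h, where the median of all tested genes was -0.07, -0.21 and -0.40. With CX-5461 it was -0.56, -1.24 and -0.46, where that of all tested genes was -0.18, -0.28 and 0.11. Nothing is read from these medians, since the same differences chose the genes. The courses fell into distinct shapes, described gene by gene in the order Zic, Pax, Hes, and then Insm1 and Sox1.

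**Figure D1:**
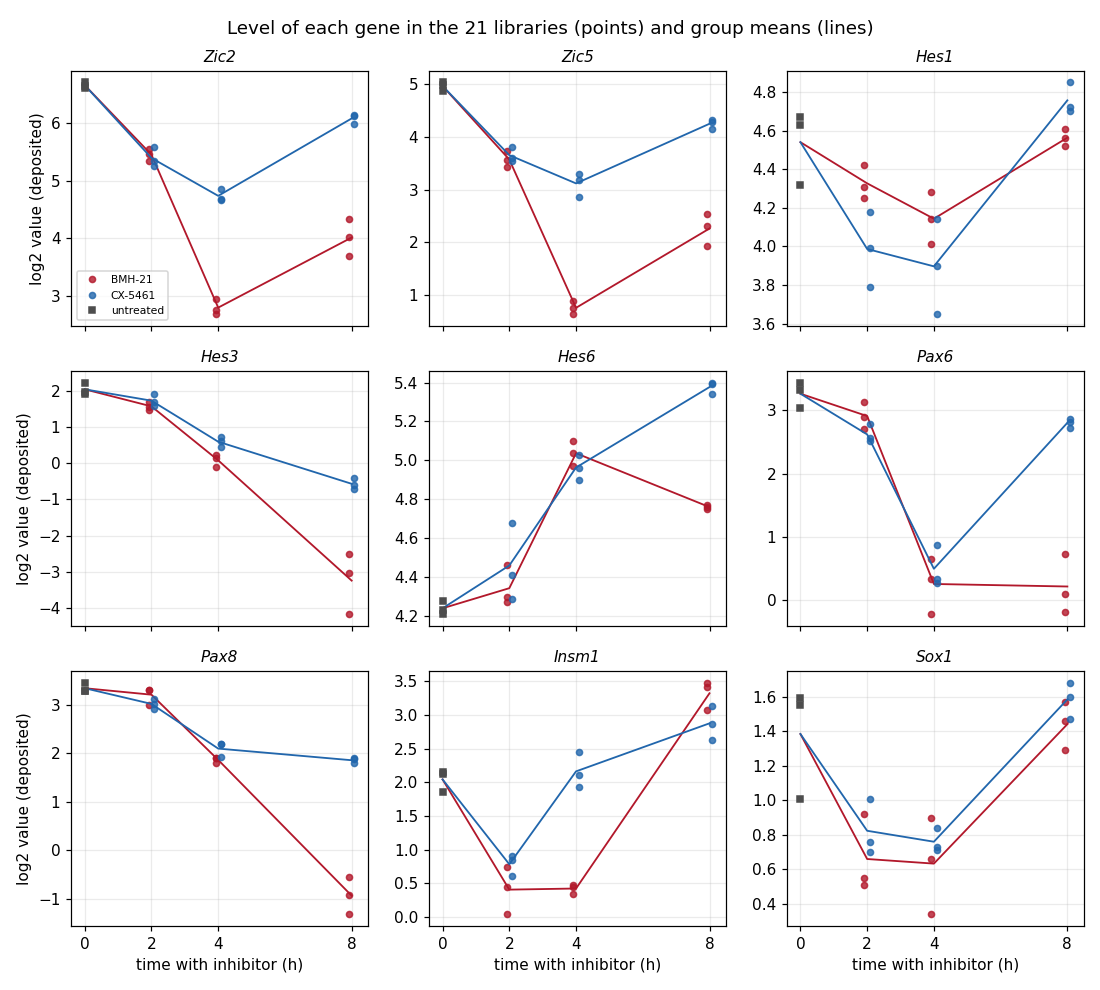
Log2 level (y axis, deposited scale) of the 9 genes against hours with inhibitor (x axis); each point is 1 library, lines join group means, red is BMH-21, blue CX-5461 and grey squares untreated cells. Zic2 and Zic5 were lowest at 4 h, Pax6 stayed low at 8 h with BMH-21 (mean 0.22) and not with CX-5461 (mean 2.80), and Insm1 was above untreated cells at 8 h with both; each panel has its own y axis.

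Zic2 and Zic5 are a divergent pair on chromosome 14. Zic2 (GRCm38 positions 122475384 to 122480328, plus strand) has 3 exons and Zic5 (122459160 to 122465658, minus strand) has 2, and their RefSeq starts lie 9.7 kb apart. Zic2 stood at log2 values of 6.71, 6.62 and 6.65 in untreated cells and at 5.34, 5.56 and 5.46 after 2 h of BMH-21. It then reached 2.95, 2.69 and 2.76 at 4 h, 6.88% of the untreated level, and 4.34, 3.69 and 4.02 at 8 h, 16% of it. With CX-5461 the values were 5.59, 5.35 and 5.25 at 2 h, 4.67, 4.86 and 4.69 at 4 h, and 6.15, 5.98 and 6.12 at 8 h. Every treated library lay below every untreated one, the lowest group was 4 h in both series, and only the 2 h groups of the inhibitors overlapped each other.

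Zic5 followed Zic2 at a lower level, with a Pearson correlation of 0.99 over the 21 libraries, which share treatment and scaling. It was at 4.99, 5.04 and 4.88 in untreated cells, 3.43, 3.73 and 3.56 after 2 h of BMH-21, 0.88, 0.75 and 0.64 at 4 h, and 2.54, 1.94 and 2.31 at 8 h. The 4 h values correspond to 86 to 96 reads per library against 1390 to 1499 in untreated cells, or 5.41% of the untreated level. With CX-5461, Zic5 was at 3.81, 3.61 and 3.55, then 2.87, 3.30 and 3.19, then 4.32, 4.16 and 4.28, so that its 8 h level was 60.8% of the untreated one. Zic2 ranked 6 and Zic5 ranked 3 of 14666 genes, counted from the largest fall, after 4 h of BMH-21.

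Pax6 (chromosome 2, 105668896 to 105698410, plus strand) has coding transcripts of 8 to 14 exons. It was at 3.32, 3.44 and 3.03 in untreated cells and at 2.70, 3.13 and 2.90 after 2 h of BMH-21, which overlapped. At 4 h it was at 0.65, 0.34 and -0.22, and at 8 h at 0.73, 0.10 and -0.18, or 12.4% and 12.1% of the untreated level. With CX-5461 the 4 h values were as low, 0.34, 0.88 and 0.27, after 2.78, 2.51 and 2.57 at 2 h, but the 8 h values were 2.72, 2.82 and 2.87. Untreated cells, both 2 h groups and CX-5461 at 8 h formed a high set in which neighbours overlapped. CX-5461 at 4 h and BMH-21 at 4 h and 8 h formed a low set in which neighbours overlapped too, with no value between the sets. The antisense RNA gene Pax6os1 shares 0 bases of exon with Pax6 and is not in the table.

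Pax8 (chromosome 2, 24420551 to 24475599, minus strand) has 10 to 12 exons. Its level was 3.45, 3.28 and 3.28 in untreated cells, 3.00, 3.30 and 3.31 after 2 h of BMH-21, 1.89, 1.80 and 1.89 at 4 h, and -0.93, -1.32 and -0.56 at 8 h. That last group held 31 to 42 reads per library against 440 to 510 in untreated cells, 5.18% of the untreated level. With CX-5461 Pax8 was at 3.12, 3.01 and 2.91, then 1.92, 2.18 and 2.18, then 1.79, 1.90 and 1.87. Its lowest group, 8 h of BMH-21, was separate from all others, and the neighbouring 4 h BMH-21 and 8 h CX-5461 groups overlapped.

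Hes3 (chromosome 4, 152285250 to 152291911, minus strand) has 5 exons. It had the largest fall of the 14666 genes after 8 h of either inhibitor. From 2.22, 1.91 and 1.97 in untreated cells it went to 1.55, 1.69 and 1.45 at 2 h, 0.13, -0.12 and 0.22 at 4 h and -2.51, -3.04 and -4.16 at 8 h of BMH-21. The last 3 values rest on 10, 10 and 3 reads, against 170 to 218 reads in untreated libraries, so the size of this fall (-5.27 on the log2 scale, 2.59% of untreated) is limited by counting error. With CX-5461 Hes3 was at 1.91, 1.56 and 1.69, then 0.44, 0.73 and 0.60, then -0.60, -0.40 and -0.71, the last on 26 to 39 reads. Every group from 4 h on was separate from its neighbours in level, and Hes3 and Pax8 had a correlation of 0.96 over the 21 libraries.

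Hes1 and Hes6, the other members of the family among the 9, did not share the course of Hes3. Hes1 (chromosome 16, 30065357 to 30067796, plus strand) was at 4.63, 4.67 and 4.32 in untreated cells, and its treated group means lay less than 1 log2 unit from the untreated mean. Its lowest group mean was 3.89 ± 0.25 after 4 h of CX-5461 (3.9, 4.14 and 3.65) and its highest 4.75 ± 0.08 after 8 h of CX-5461 (4.85, 4.70 and 4.72). With BMH-21 it was at 4.25, 4.42 and 4.31, then 4.28, 4.01 and 4.14, then 4.61, 4.52 and 4.56. Neighbouring groups in this order overlapped, except that CX-5461 at 8 h lay above BMH-21 at 8 h. The scaling matters here: Hes1 after 8 h of BMH-21 differed from untreated cells by 0.03 on the deposited scale and by 0.24 after centring, and stood at 14.7 ± 0.73 against 9.95 ± 0.612 on the per-kilobase scale of library totals.

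Hes6 (chromosome 1, 91411483 to 91414038, minus strand) was above untreated cells in every library from 4 h on. It stood at 4.28, 4.23 and 4.21 in untreated cells, at 5.04, 4.97 and 5.10 after 4 h of BMH-21 and at 4.77, 4.76 and 4.75 after 8 h. With CX-5461 it was at 4.90, 5.03 and 4.96 at 4 h and at 5.39, 5.34 and 5.40 at 8 h, 220.0% of the untreated level. The 2 h groups lay at 4.27, 4.46 and 4.30 (BMH-21) and 4.68, 4.29 and 4.41 (CX-5461), the first overlapping with untreated cells and the second above them.

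Insm1 (chromosome 2, 146221997 to 146225020, plus strand, 1 exon) was low at 2 h and high at 8 h. It went from 2.15, 2.12 and 1.86 in untreated cells to 0.04, 0.74 and 0.44 after 2 h of BMH-21, stayed at 0.48, 0.34 and 0.45 at 4 h, and reached 3.48, 3.07 and 3.42 at 8 h. In reads this was 172 to 207, then 48 to 80, 65 to 75 and 669 to 726 per library. With CX-5461 it was at 0.90, 0.61 and 0.84 at 2 h, already back at 1.93, 2.45 and 2.11 at 4 h, and at 3.13, 2.63 and 2.87 at 8 h. All 8 h libraries lay above all untreated ones, at means of 243.0% (BMH-21) and 178.0% (CX-5461) of the untreated level.

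Sox1 (chromosome 8, 12395519 to 12399555, plus strand, 1 exon) had the lowest level and a shallow course. It was at 1.55, 1.59 and 1.01 in untreated cells, with 95 to 137 reads per library. BMH-21 gave 0.51, 0.55 and 0.92 at 2 h, 0.90, 0.34 and 0.66 at 4 h, and 1.57, 1.29 and 1.46 at 8 h. CX-5461 gave 0.76, 0.70 and 1.01, then 0.71, 0.73 and 0.84, then 1.6, 1.47 and 1.68. The 8 h and untreated groups overlapped, as did the 2 h and 4 h groups.

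**Figure D2:**
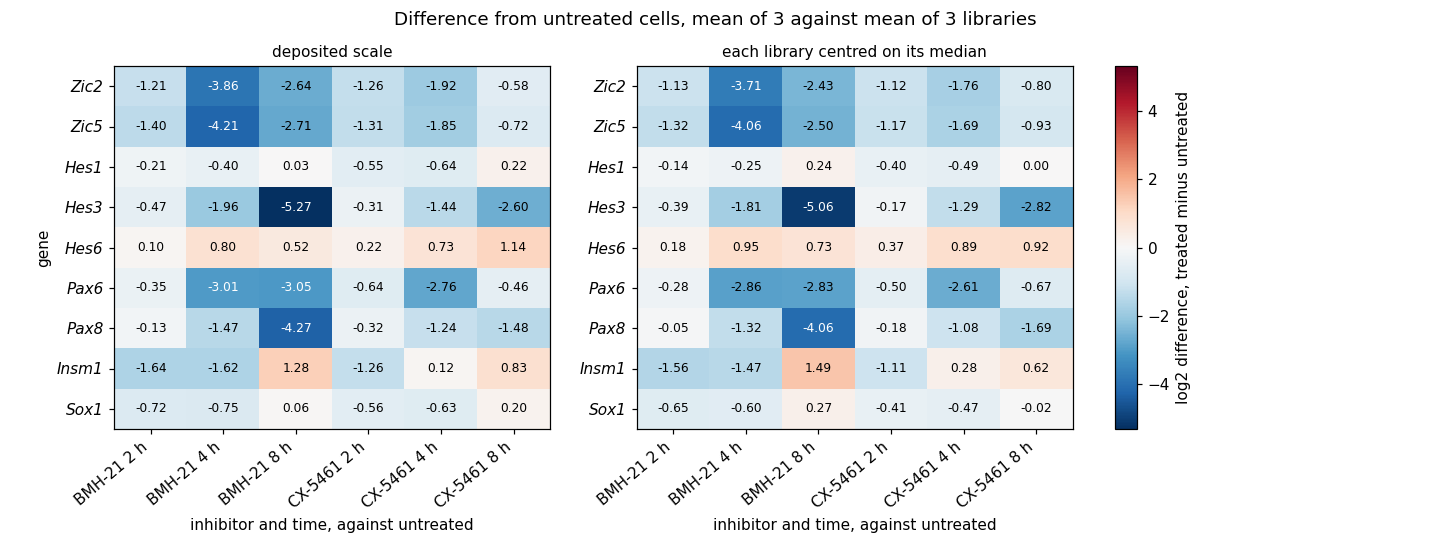
Log2 difference from untreated cells (colour and printed value) of each gene (rows) by inhibitor and time (columns), on the deposited scale (left) and with each library centred on its median (right). Hes3 at 8 h of BMH-21 is the darkest cell on the left, at -5.27, and centring moves no difference beyond 1 unit in size across 0.

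The inhibitors were compared directly at 1 µM and matched times. At 2 h, 0 of the 9 genes were called lower or higher with BMH-21 than with CX-5461 by limma at an adjusted p under 0.05 (1.52% of all tested genes were lower and 2.47% higher), and 2 genes had an unadjusted p under 0.05. The largest difference was -0.38 for Insm1 (95% interval -0.70 to -0.06, adjusted p = 0.21). For Zic2 it was 0.05 (interval -0.18 to 0.28) and for Zic5 -0.08 (interval -0.33 to 0.17). On centred values Insm1 was called lower (-0.45, adjusted p = 0.011) and Hes1 higher (0.27, adjusted p = 0.014).

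At 4 h, Zic2, Zic5 and Insm1 were lower with BMH-21 (3 of 9, against 8.49% of all tested genes), and none was called higher (9.35% of all tested genes), though Hes1 (0.25, adjusted p = 0.13) was called on centred values (0.24, adjusted p = 0.010). Zic2 differed by -1.94 (SE 0.12, adjusted p = 1.4e-30) and Zic5 by -2.36 (SE 0.13, adjusted p = 2.3e-34). Insm1 differed by -1.74 (SE 0.16, adjusted p = 1.1e-16). In each of these the 3 BMH-21 libraries lay below the 3 CX-5461 libraries, and the centred differences were -1.95, -2.37 and -1.75. Pax6, low with both, differed by -0.24 (interval -0.58 to 0.09) and Pax8 by -0.23 (interval -0.52 to 0.06).

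At 8 h, 6 of 9 genes were lower with BMH-21, where 67.2% of all tested genes were lower and the median of all genes was -0.48. Hes3, Pax8 and Pax6 had the widest gaps: -2.67 (SE 0.23, adjusted p = 5.2e-20), -2.79 (SE 0.15, adjusted p = 5.4e-36) and -2.59 (SE 0.17, adjusted p = 1.3e-28). Zic2 differed by -2.06 and Zic5 by -1.99, each with SE 0.12 or 0.13. After centring these 5 genes differed by -2.24, -2.37, -2.16, -1.64 and -1.56 in the same order, and all 5 were still called. Hes6 was also lower, by -0.62 on the deposited scale (adjusted p = 3.1e-07), by -0.19 after centring (adjusted p = 0.016) and by -0.15 with median-ratio factors (adjusted p = 0.056).

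On the deposited scale Insm1 was the 1 gene of the 9 called higher with BMH-21 at 8 h (0.45, SE 0.16, adjusted p = 0.0084), beside 12.0% of all tested genes, although its libraries overlapped. The call was lost without replicate 1 of the BMH-21 group (0.37, adjusted p = 0.052) or replicate 2 of the CX-5461 group (0.33, adjusted p = 0.089), and the difference was 0.88 after centring. Hes1 and Sox1 differed by -0.19 (interval -0.42 to 0.04) and -0.14 (interval -0.51 to 0.22), and both had the opposite sign after centring (0.24 and 0.28), where Hes1 was called higher (adjusted p = 0.0055).

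**Figure D3:**
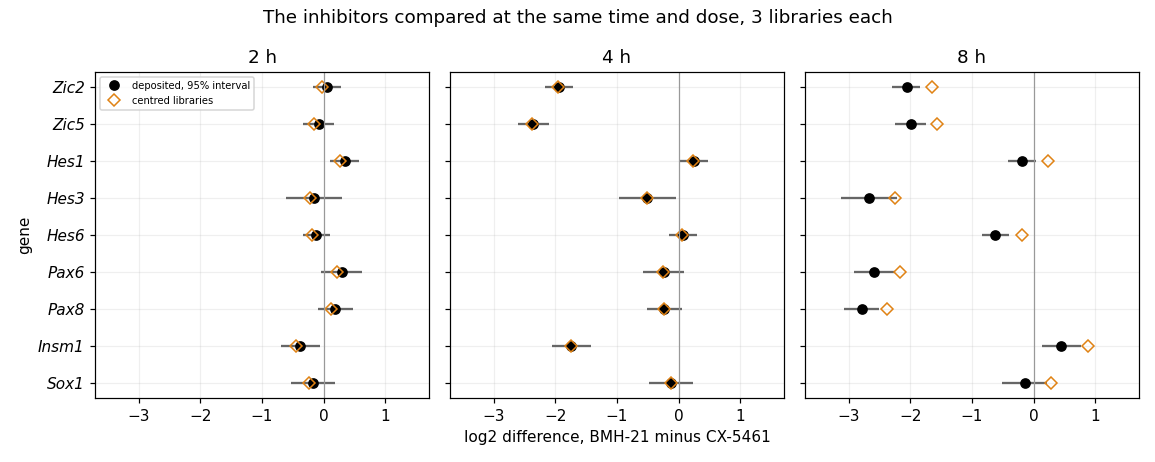
Log2 difference between BMH-21 and CX-5461 (x axis) for each gene (rows) at 2 h, 4 h and 8 h; filled points with bars are deposited values with 95% intervals and open diamonds are centred values. Points to the left of 0 are lower with BMH-21 and include Zic2, Zic5 and Insm1 at 4 h, and Hes3, Pax6, Pax8, Zic2 and Zic5 at 8 h.

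From 2 h to 4 h, 5 of 9 genes fell with each inhibitor, Zic2, Zic5, Pax6, Pax8 and Hes3, beside 34.8% of all tested genes with BMH-21 and 26.8% with CX-5461. Pax6 fell by 2.65 on the log2 scale with BMH-21 (adjusted p = 8.5e-30) and by 2.12 with CX-5461 (adjusted p = 2.2e-22). Hes6 rose with both, by 0.69 and 0.50 (20.8% and 20.7% of all genes rose), and Insm1 rose with CX-5461 alone among the calls, by 1.38 (adjusted p = 6.4e-13), against 0.02 with BMH-21. The change itself differed between the inhibitors, by an interaction term, for 3 of 9 genes, where 3.33% of all genes passed. These were Zic2 (-1.99, adjusted p = 1.8e-19), Zic5 (-2.27, adjusted p = 2e-20) and Insm1 (-1.36, adjusted p = 8.4e-06), each more negative with BMH-21.

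From 4 h to 8 h the genes parted. With BMH-21, 5 of 9 rose (18.6% of all tested genes) and 3 fell (37.8%): Zic2 rose by 1.22, Zic5 by 1.5, Insm1 by 2.90, Sox1 by 0.81 and Hes1 by 0.42, while Hes3 changed by -3.32, Pax8 by -2.80 and Hes6 by -0.28. Pax6 did not pass the test (-0.04, interval -0.37 to 0.29). With CX-5461, 7 of 9 rose (58.8% of all tested genes) and Hes3 alone fell (4.85%), by 1.16 on the log2 scale. Among the rises Pax6 gained 2.30 (SE 0.17, adjusted p = 4.8e-24) and Zic2 gained 1.34. The rise of Hes6 (0.41) was 0.04 after centring and was then not called, and Pax8 (-0.24) was called lower after centring (-0.61, adjusted p = 5.6e-05).

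The 4 h to 8 h change differed between the inhibitors for 6 of 9 genes, where 69.4% of all genes passed and the median of all genes was -0.52. Pax8 (-2.56), Pax6 (-2.34) and Hes3 (-2.16) went lower with BMH-21 than with CX-5461, and Insm1 (2.19, adjusted p = 8.2e-15) went higher. All 4 were called after centring as well, at -2.12, -1.91, -1.72 and 2.62. Hes1 (-0.44) and Hes6 (-0.69) lay near the median of all genes and became 0.00 and -0.26 after centring. For Zic2 the difference was -0.12 (interval -0.44 to 0.20) and for Zic5 0.37 (interval 0.01 to 0.72, adjusted p = 0.060). After centring both were called, at 0.31 (adjusted p = 0.011) and 0.80 (adjusted p = 1.6e-06).

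**Figure D4:**
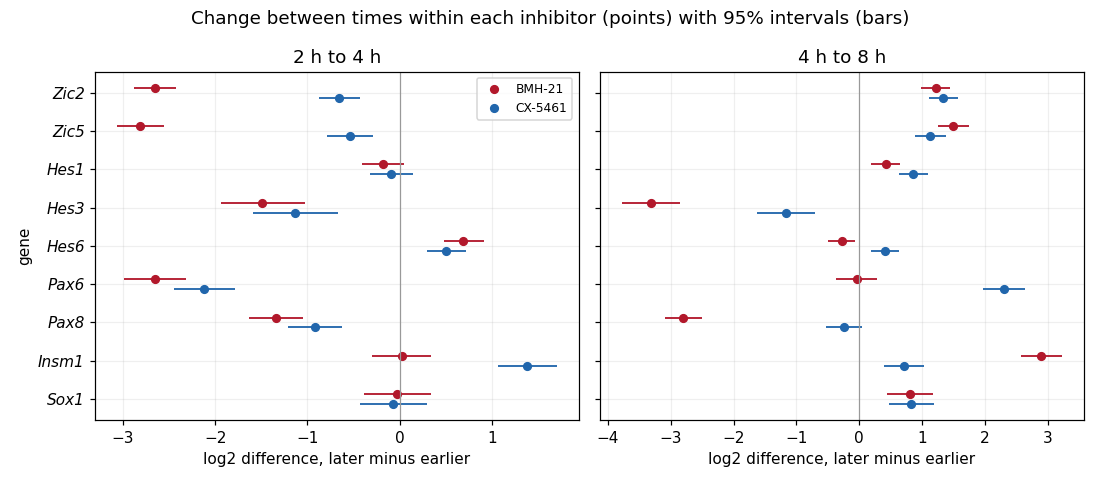
Log2 change of each gene (rows) from 2 h to 4 h (left) and from 4 h to 8 h (right), later minus earlier, with BMH-21 in red and CX-5461 in blue and 95% intervals as bars. From 4 h to 8 h Pax6 gained 2.30 with CX-5461 and -0.04 with BMH-21, and Insm1 gained 2.90 with BMH-21.

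Relatives of the 9 genes were taken from fixed lists. For the counts that follow, 24.5% of all tested genes were higher and 56.9% lower than in untreated cells after 8 h of BMH-21, and 35.1% were higher and 14.3% lower after 8 h of CX-5461. These shares are for the deposited scale and do not apply to the counts after centring. Of 7 other Pax genes 2 were tested, Pax2 and Pax7, and both rose. Both were below 0 in every untreated library and passed the filter only through treated libraries. Their rises were therefore favoured by the filter and are given as a description. Pax7, a factor of neural crest and muscle progenitors, was at 7 to 14 reads per library in untreated cells. It reached 117 to 145 at 4 h and 208 to 240 at 8 h of BMH-21 (log2 difference 3.88 at 8 h). With CX-5461 it was at 64 to 70 at 8 h (2.71). Pax2 rose by 1.57 and 1.02 at 8 h. The other SoxB genes that were tested, Sox2, Sox3 and Sox21, all fell by 8 h of BMH-21, with log2 differences of -1.18, -1.20 and -1.01. With CX-5461 their 8 h values were -0.12, -0.31 and -0.25, which did not pass the test in limma (adjusted p of 0.33, 0.076 and 0.14), whereas all 3 were called lower after centring. Sox2 is also among the embryonic stem cell markers.

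Of the other Hes, Hey and Bhlhe genes 6 of 9 were tested, and after 8 h 4 were higher with BMH-21 (24.5% of all tested genes) and 5 with CX-5461 (35.1%), the rest not passing the test, and the median was 2.12 and 1.38 against -0.40 and 0.11 for all genes. Heyl and Hey2 were below 0 in every untreated library and passed the filter only through treated libraries. Their rises enter these counts and medians, so nothing is read from either. Heyl, a Notch target repressor, rose from 5 to 7 reads per library to 217 to 291 with BMH-21 (log2 difference 4.80) and to 79 to 87 with CX-5461 (3.73). Hey2, another such repressor, rose by 2.39 and 1.62 and was already up at 2 h (0.86 and 1.82). Bhlhe40 and Bhlhe41, stress and clock related repressors, rose by 2.14 and 2.1 after BMH-21 and by 1.76 and 1.13 after CX-5461. Hes2 did not pass the test with either inhibitor at 8 h, and Hes5, Hes7 and Helt were below the filter. Hes3 lay on the other side of 0 from the members of its family that were called at 8 h. Nothing is read from this contrast, since Hes3 was chosen with its fall known and the filter favoured the rises of Heyl and Hey2.

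In the Notch pathway, 33 of 35 genes were tested. At 8 h, 7 were higher and 19 lower for BMH-21 (median -0.36, against -0.40 for all genes), shares near the 24.5% and 56.9% of all tested genes. For CX-5461 16 were higher and 2 lower (median 0.24, against 0.11 for all genes), beside 35.1% and 14.3%. The balance depended on the scaling: 10 higher and 16 lower with BMH-21 and 13 higher and 11 lower with CX-5461 after centring. The shares of all genes after centring are not given here, so nothing more is read from the centred counts. The ligand gene Dll1 rose by 2.27 and the Notch feedback inhibitor Nrarp by 2.54 with BMH-21, and the coactivator Maml3 by 2.74 from a low level. Maml3 had an untreated mean of -1.0 and passed the filter only through treated libraries. Notch4, a receptor gene, had the largest fall (-3.26), followed by Maml2 (-1.65) and the ligand gene Dll3 (-1.47). With CX-5461 the receptor gene Notch3 (1.84), the ligand gene Jag2 (1.62) and Maml3 (1.57) rose most, while Notch4 (-0.65) and Rbpj (-0.49), the DNA-binding factor of the pathway, were the 2 lower genes.

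Among 39 other neural transcription factor genes 17 were tested, and at 8 h 7 were higher and 8 lower with BMH-21 (24.5% and 56.9% of all tested genes), and 10 higher and 2 lower with CX-5461 (35.1% and 14.3%), or 9 and 5 after centring. Myt1, a zinc finger factor of differentiating neurons, rose by 4.74 and 3.12, from 12 to 18 reads per library to 507 to 644 and 127 to 140. Neurod1, a proneural factor, rose by 2.11 and 1.48, Pou3f3 by 4.04 with BMH-21 and Olig1 by 1.26 with CX-5461. Myt1, Pou3f3 and Olig1 had untreated means below 0 (-1.64, -2.26 and -0.96). They could not pass the filter, or be named, without their treated libraries, so the filter favoured these rises and the counts of higher genes. Neurog3, an endocrine and neural factor, fell by 2.51 and 1.66 on the log2 scale, and En1 (-2.50) and Gbx2 (-2.36), of the midbrain-hindbrain region, were among the largest falls with BMH-21, as Sox11 was with CX-5461 (-0.93). Of 10 genes of neural cells, 8 were tested and 7 were lower after 8 h of BMH-21 (56.9% of all tested genes), among them Elavl4 (-2.75), Map2 (-1.61) and Tubb3 (-1.33). With CX-5461 2 were higher (Nes by 0.72, Ncam1 by 0.45) and 2 lower (Elavl4 -0.56, Stmn2 -0.49), or 2 and 5 after centring. For both lists the centred counts stand without a share of all genes, and nothing is read from them. The sum of these genes was 454.4 to 498.6 CPM in untreated cells and, at 8 h, between 320.4 and 346.7 in the BMH-21 libraries and between 470.7 and 484.4 in the CX-5461 libraries.

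**Figure D5:**
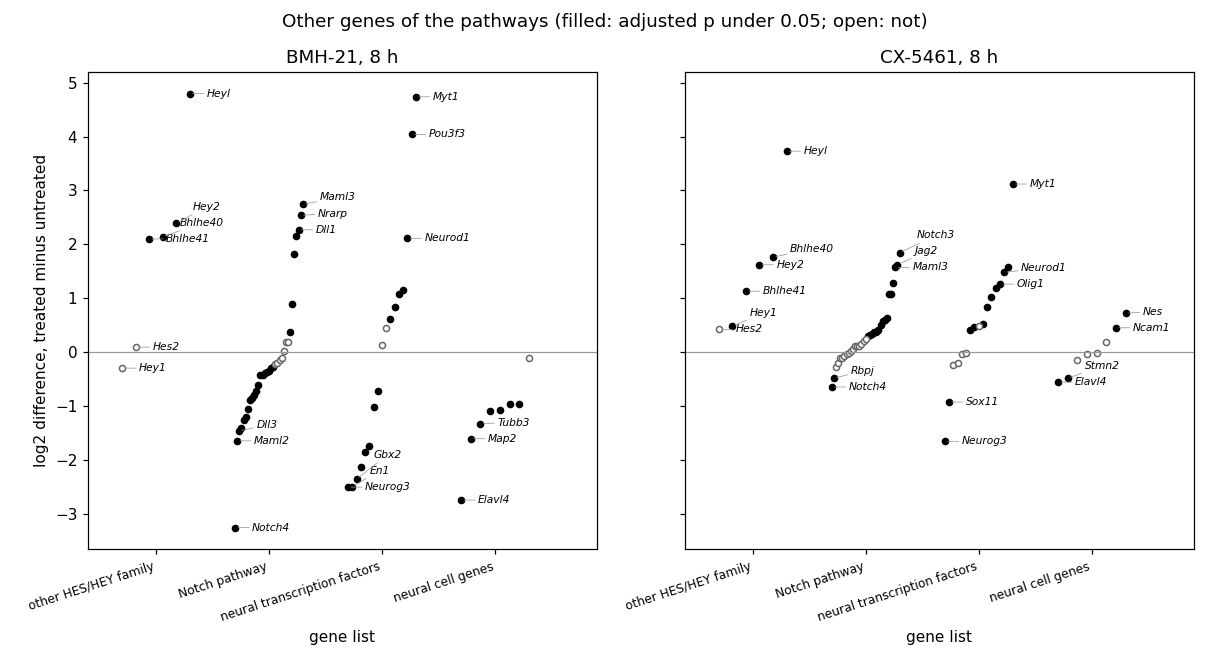
Log2 difference from untreated cells (y axis) after 8 h of BMH-21 (left) and CX-5461 (right) for the tested genes of 4 lists (x axis), each point 1 gene on the deposited scale, filled where the adjusted p is under 0.05. Heyl (4.80 and 3.73) and Myt1 (4.74 and 3.12) are the highest in both panels, and Notch4 is the lowest with BMH-21 (-3.26). Heyl and Myt1 passed the filter on low values only through treated libraries.

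The genes whose centred course over the 21 libraries was most like that of each of the 9 were listed, searching 13675 genes and with Pearson's r as a description. For both Zic2 and Zic5 the closest was Mir124a-1hg, the host RNA gene of a neural miRNA, at 0.996 and 0.991, followed by Mex3a (0.988) and Zfp184 (0.986) for Zic2 and by Zfp184 (0.986) and Sall1 (0.983) for Zic5. Mir124a-1hg itself went from 329 to 358 reads per library in untreated cells to 17 to 21 after 4 h of BMH-21 and 62 to 86 after 8 h, with 89 to 101 and 190 to 218 at these times with CX-5461. Pax6 was closest to Bag3 (0.989) and Etv5 (0.985), Pax8 to Pcbp4 (0.991) and Ccnd3 (0.991), and Hes3 to Rfc5 (0.989) and Tdh (0.989). Insm1 was closest to Fem1a (0.959), Hes6 to Arrdc1 (0.966), Hes1 to Stoml1 (0.899) and Sox1 to Mus81 (0.879). The 21 points share treatments and scaling.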

How the data were processed

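A directional kit was used to build the 21 libraries from polyadenylated RNA, per the labels' protocols. The deposited table holds log2 values that, per the file name, the authors normalized with voom. Reads were trimmed with Trim Galore 0.5.0 and mapped with TopHat2 2.1.1 to mm10, and R 4.0.5 with DESeq2 1.30.1, edgeR 3.32.1 and limma 3.46.0 is named, per the submitters' processing notes; the counting program, the annotation and the filters are not given in the sources used here.

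Whole reads were recovered from every value to within 1.7e-08, with an offset of 0.5 reads. The main test was limma 3.58.1 (R 4.3.3) on the deposited values: 1 mean per group, all 21 libraries, a mean-variance trend, two-sided, with Benjamini-Hochberg adjustment over 14666 genes at 0.05. The prior on the variance had 111.5 degrees of freedom and the libraries 14, and the own SD of 6 of the 9 genes exceeded the moderated one that the test used, most for Pax6 (0.303 against 0.206) and Hes3 (0.351 against 0.283), and by less for Insm1, Zic2, Zic5 and Hes1. Replicates differed beyond counting noise (chi-square per degree of freedom 2.65 to 27.3). The fit was tested on simulated data. Counting intervals do not cover PCR duplicates.

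The 9 genes and the lists were chosen with earlier results of these data known. Of the lists of Notch, neural factor and neural cell genes, those named are the 3 largest rises and falls at 8 h of each inhibitor with no overlap between groups, a mean of 0 or more and an adjusted p below 0.05; every tested gene of the other lists may be named, and a result among them is not reported here. Positions and exons come from GENCODE and RefSeq on GRCm38. Alternatives were centring, median-ratio factors, a floor at 0, an offset of 5 reads, no filter, no trend, a replicate block, only the groups compared, and each library left out.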

Additional observations from a re-analysis of the deposited data

Results flagged for a closer look

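The change from 2 h to 4 h differed between BMH-21 and CX-5461, by an interaction term in limma, for Zic2 (-1.99), Zic5 (-2.27) and Insm1 (-1.36), each more negative with BMH-21. The change from 4 h to 8 h differed for Pax8 (-2.56), Pax6 (-2.34) and Hes3 (-2.16), each more negative with BMH-21, and for Insm1 (2.19), which gained more with BMH-21. It also differed for Hes6 (-0.69) and Hes1 (-0.44), whose values lay near the median of all genes for this term (-0.52). With median-ratio factors neither was called by limma (Hes6 -0.15, adjusted p = 0.18, and Hes1 0.10, adjusted p = 0.4). After centring Hes6 (-0.26) was called and Hes1 was not. Without replicate 3 of the 4 h CX-5461 group Hes1 was at -0.31 and no longer called (adjusted p = 0.11). The Hes3 value rests on 3 to 10 reads per library after 8 h of BMH-21.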

How the results depend on the processing

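The counts of the 9 genes called between the inhibitors and between times moved by over 1.5 times in these cases, mostly by scaling. The count lower with BMH-21 than CX-5461 at 2 h was 0 as reported, 1 after centring, 2 with median-ratio factors and 1 with a replicate block on centred values. With each of these 3 settings the count higher with BMH-21 went from 0 to 1 at 2 h, from 0 to 1 at 4 h and from 1 to 2 at 8 h, and the count falling from 4 h to 8 h of CX-5461 from 1 to 2. In the interaction from 4 h to 8 h the count higher was 1 as reported. It was 3 after centring, with or without a replicate block, 4 with median-ratio factors and 2 with a floor at 0. The count lower there was 5 as reported and 3 with median-ratio factors. The count called in either direction between the inhibitors at 4 h was 3 as reported and 5 with median-ratio factors. Leaving out 1 library moved the counts higher with BMH-21 by 1, through Hes1 at 2 h and 4 h and Insm1 at 8 h. It also moved the count higher in the interaction from 4 h to 8 h from 1 to 2, through Zic5. An offset of 5 reads and the replicate block on the deposited values left the direction of all 135 values for the 9 genes, and each call between inhibitors and times, as they were. No pairing by replicate number was seen. Residuals of same-numbered libraries had a mean correlation of -0.02 over 63 pairs, against 0.01 for different numbers, and 4 of 21 libraries were closest to their own number. This cannot show whether same-numbered libraries shared a culture or day.

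Some values changed sign. After centring, and equally with a replicate block on centred values, they were -0.02 for Sox1 at 8 h of CX-5461 against untreated cells, -0.02 for Zic2 between the inhibitors at 2 h, 0.24 for Hes1 and 0.28 for Sox1 between them at 8 h, 0.05 for Sox1 from 2 h to 4 h of BMH-21, 0.02 for Pax6 from 4 h to 8 h of BMH-21, and 0.31 for Zic2 and 0.41 for Sox1 in the interaction from 4 h to 8 h. With median-ratio factors they were -0.05 for Zic2 between the inhibitors at 2 h, 0.28 for Hes1 and 0.33 for Sox1 at 8 h, 0.07 for Sox1 from 2 h to 4 h and 0.14 for Pax6 from 4 h to 8 h of BMH-21, and 0.42 for Zic2, 0.10 for Hes1 and 0.52 for Sox1 in the interaction from 4 h to 8 h. With values below 0 set to 0, Hes3 gave 0.00 between the inhibitors at 8 h and 0.47 in the interaction from 4 h to 8 h, because its 8 h values lie below that floor.

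Leaving out each library in turn changed the sign of the following small values. Against untreated cells, Hes1 ranged from -0.08 to 0.10 and Sox1 from -0.13 to 0.16 at 8 h of BMH-21, and Insm1 from -0.03 to 0.23 at 4 h of CX-5461. Between the inhibitors Zic2 ranged from -0.02 to 0.15 at 2 h and Sox1 from -0.26 to 0.02 at 4 h. From 2 h to 4 h of BMH-21 Insm1 ranged from -0.16 to 0.19 and Sox1 from -0.16 to 0.12, and with CX-5461 Hes1 from -0.22 to 0.03 and Sox1 from -0.13 to 0.02. Pax6 ranged from -0.30 to 0.16 from 4 h to 8 h of BMH-21. In the interaction from 2 h to 4 h Hes1 ranged from -0.21 to 0.03 and Sox1 from -0.09 to 0.19, and in that from 4 h to 8 h Zic2 from -0.29 to 0.04 and Sox1 from -0.17 to 0.11. Some calls depended on 1 library. The call of Hes6 from 4 h to 8 h of BMH-21 (-0.28) was lost without 4 h replicate 3 (-0.25) or 8 h replicate 3 (-0.27). Hes1 became called between the inhibitors without CX-5461 replicate 1 at 2 h (0.44, adjusted p = 0.035) and replicate 2 at 4 h (0.37, adjusted p = 0.024), and Zic5 in the interaction from 4 h to 8 h without BMH-21 replicate 1 at 4 h (0.43) or 2 at 8 h (0.53) or CX-5461 replicate 1 at 4 h (0.49). Depth limits the levels of Hes3 after 8 h of BMH-21, and the cause of the differences between scalings was not tested.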
